A study of Mus musculus with 18 samples.

Results

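The genes described here are 51 genes of DNA replication and mitosis, taken by symbol from a heart RNA-seq table of 24341 genes. They comprise 24 replication genes and 27 mitosis genes. All 51 symbols were found. Hearts came from C57BL/6 mice aged 12 weeks, either wild-type (WT) or labelled as a heart-specific knockout of Med13 (cKO), a subunit of the Mediator complex. Each genotype had 3 libraries from mice on normal chow, 3 from mice given the antithyroid drug propylthiouracil (PTU) in the diet, and 3 from mice given the PTU diet and then triiodothyronine (T3). That makes 18 libraries in 6 groups of 3. The diets began at 8 weeks of age and ran for 4 weeks, and T3 was given by 3 daily injections. PTU blocks thyroid hormone synthesis and T3 is the active hormone, so the PTU group stands for hypothyroid hearts and the last group for hearts given hormone back over a few days. The labels name neither the promoter that drove the deletion nor the sex of the mice, and they do not say outright that each library is a separate animal. P-values therefore measure the spread between these samples, which may in part be technical.

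A dividing cell first loads the ring-shaped Mcm2 to Mcm7 helicase onto its origins with Cdc6 and Cdt1. The kinases with cyclin E and the E2F transcription factors then bring it into DNA synthesis, which needs polymerases, the Pcna clamp and a supply of deoxynucleotides. Entry into mitosis follows through Cdk1 with cyclins A and B, Aurora and Polo-like kinases, spindle motors and the spindle checkpoint, and cytokinesis ends it. Most adult mouse cardiomyocytes no longer divide, so in whole heart these transcripts can come from endothelial cells, fibroblasts, blood cells or cardiomyocytes.

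Levels are in FPKM, fragment counts scaled by transcript length and library size, as the authors deposited them. Med13 itself stood at 5.24 to 6.96 FPKM in the WT libraries and at 4.93 to 6.82 FPKM in those labelled cKO, so its level did not separate the genotypes. This value covers the whole gene in all cells of the heart and does not check a deletion of part of it in cardiomyocytes. Group names below are those of the labels. The hearts carried cardiomyocyte markers at a high level, with a sum over 10 of them between 41570.6 and 83912.5 FPKM. Correlations between libraries of a group ran from 0.975 to 0.992, and the deepest library was 1.53 times as deep as the shallowest. Several libraries stood apart for the mitosis genes. WT PTU+T3 replicate 2 was the highest of its group for 22 of the 27 and cKO chow replicate 3 for 21, and WT PTU replicate 3 was the lowest for 20. The most extreme was cKO PTU replicate 2, the highest of its group for 26. Its summed macrophage markers were 661 FPKM against 211 and 261 in the other cKO PTU hearts, and its summed fibroblast markers 1570 FPKM against 815 and 821. Results that rest on this last heart are given with and without it.

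Most of these genes were rare transcripts in the heart. Averaged over the 18 libraries, 22 of the 51 members lay below 1 FPKM, 6 of them replication genes and 16 mitosis genes. Pcna, the sliding clamp that holds polymerases on DNA, was far above the rest at 31.9 to 56.7 FPKM. Dut, the enzyme that removes dUTP, followed at 7.20 to 13.6 FPKM. At the other end Cenpe, a kinetochore motor, had the lowest mean, 0.230 FPKM, and Cdc6 the lowest maximum, 0.590 FPKM. A floor of 0.01 FPKM was reached by 4 genes (Ccnb2, Aurkb, Plk1 and Bub1), each in the same library, WT PTU replicate 3. In addition, 11 members have exons that overlap a gene on the other strand, and the kit did not mark strand, so part of their reads may belong to the neighbour. These are Ccna2, Ccne2, Cdc20, Cdca8, Gins2, Kif20a, Mcm7, Nusap1, Prc1, Tk1 and Ube2c.

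After T3, most members of both classes were higher than on PTU, in WT and in cKO hearts. In WT the ratio of group means had a median of 2.11 over the 24 replication genes and 5.40 over the 27 mitosis genes, against 0.999 over the 12587 genes tested. The ratio was above 2 for 14 replication genes and 25 mitosis genes, which is 58.3% and 92.6%, against 7.60% of all genes tested. The member ratios take in all 51 genes, 7 of them too low to be tested and 21 tested only through their T3 levels. The share of all genes covers tested genes only, so these sets are not alike. In cKO the median ratios were 1.68 and 2.56, with cKO PTU replicate 2 among the PTU hearts. These ratios were not computed without it. The median log2 fold change of the tested mitosis genes is given below with and without that heart. In bulk tissue, more cells of a dividing type and more RNA per cell cannot be told apart.

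**Figure D1:**
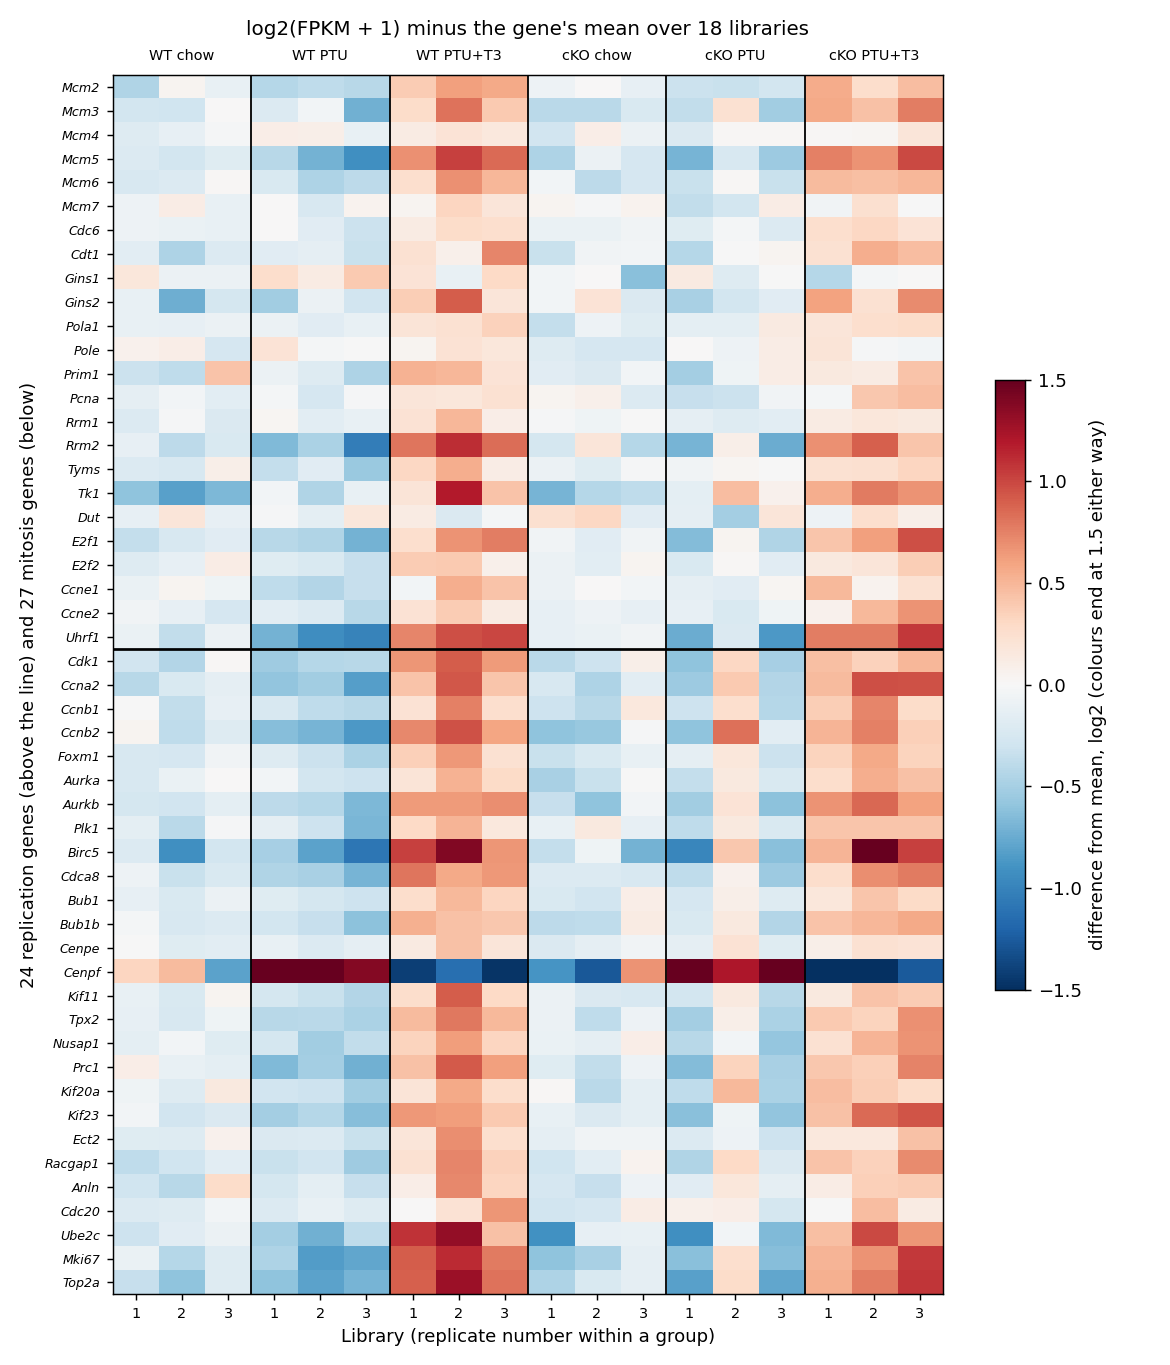
Difference of log2(FPKM + 1) from each gene's own mean over 18 libraries (colour, log2 units, ending at 1.5 either way), with 24 replication genes above the line and 27 mitosis genes below it, and libraries in columns by group. The PTU+T3 columns are red for most genes, the WT PTU columns are blue for most mitosis genes, cKO PTU replicate 2 is redder than the other hearts of its group, and Cenpf runs the opposite way.

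The stretches of promoter below are examples of letters that some members hold before their start sites. They come from RefSeq starts on build GRCm38.p6, read 5′ to 3′ over the 170 bases before the start. In Mcm5 and Mcm6, which rose with T3, capitals mark E2F-type letters (TTTCCCGC, TTTGGCGC, TTTCGCGC or TTTGCCGC). In Ccnb2 and Top2a, which rose in WT, and in Cenpf, which fell, capitals mark CCAAT and TTTGAA, the letters known as the CCAAT box and the CHR element of genes expressed late in the cell cycle. Both strands were searched, so ATTGG and TTCAAA are also in capitals.
Mcm5 (helicase subunit; chr8:75109339-75109508, plus strand): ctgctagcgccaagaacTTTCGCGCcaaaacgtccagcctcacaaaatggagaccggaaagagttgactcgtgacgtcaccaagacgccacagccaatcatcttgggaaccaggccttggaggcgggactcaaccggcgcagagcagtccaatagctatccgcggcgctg
Mcm6 (helicase subunit; chr1:128359706-128359875, minus strand): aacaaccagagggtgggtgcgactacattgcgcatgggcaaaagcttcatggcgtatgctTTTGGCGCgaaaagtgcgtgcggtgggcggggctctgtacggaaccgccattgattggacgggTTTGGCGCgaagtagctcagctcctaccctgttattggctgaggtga
Ccnb2 (cyclin B2; chr9:70421555-70421724, minus strand): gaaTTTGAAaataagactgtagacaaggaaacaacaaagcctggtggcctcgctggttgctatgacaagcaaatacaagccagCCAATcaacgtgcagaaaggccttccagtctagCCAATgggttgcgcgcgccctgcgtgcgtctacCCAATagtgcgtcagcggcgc
Top2a (topoisomerase; chr11:99024190-99024359, minus strand): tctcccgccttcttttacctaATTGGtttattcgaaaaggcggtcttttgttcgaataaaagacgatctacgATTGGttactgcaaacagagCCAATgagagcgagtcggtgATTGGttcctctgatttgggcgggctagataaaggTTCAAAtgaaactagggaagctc
Cenpf (kinetochore protein, opposite response; chr1:189688087-189688256, minus strand): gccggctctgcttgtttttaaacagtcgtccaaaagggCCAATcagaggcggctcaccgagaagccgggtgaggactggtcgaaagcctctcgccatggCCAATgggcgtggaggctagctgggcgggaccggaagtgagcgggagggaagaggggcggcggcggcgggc

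Over the 250 bases before each start, RefSeq windows were found for 19 replication genes (22 windows) and 22 mitosis genes (24 windows), among 32851 windows of 27025 genes. E2F-type letters stood in 27.3% of the replication windows, 4.17% of the mitosis windows and 1.86% of all windows. TTTGAA stood in 41.7% of the mitosis windows, 9.09% of the replication windows and 16.0% of all. At least 2 CCAAT together with TTTGAA stood in 8 of 24 mitosis windows, 33.3%, and in 1.49% of all. CCAAT alone stood in 87.5% of the mitosis windows, 68.2% of the replication windows and 33.8% of all. Overlapping matches of one motif were counted once, and different motifs were searched for apart. Not all helicase genes that rose held such letters: Mcm2 and Mcm3 had no E2F-type match, while 1 of the windows of Mcm7, which did not pass, held a match. Cenpf held 2 CCAAT and no TTTGAA in this window. These matches describe letters, not binding.

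In the formal comparison of T3 after PTU with PTU in WT hearts, 16 of the 24 replication genes rose and none fell. Of the 27 mitosis genes 22 rose and 1, Cenpf, fell. Over all 12587 genes tested, 22.3% rose and 21.8% fell. Calls are at an adjusted p under 0.05 in limma. Genes had to reach 1 FPKM in at least 3 libraries to be tested, which 44 of the 51 members did. Of these, 21 (3 replication and 18 mitosis genes) reached it only through the T3 libraries and so had to differ. That makes the counts, and the p-values of these 21 genes, a description. Of the 44 members that the authors' deposited table tested, 32 were higher and Cenpf lower at a q-value under 0.05, where 35.6% of all genes were called in either direction. For PTU against chow in WT the authors tested 22 members. Their tested set thus depends on the T3 libraries too, and their counts here are likewise a description. The members that pass without the T3 libraries are 18 replication genes, of which 13 rose, and 5 mitosis genes, of which 4 rose and Cenpf fell. With no filter all 51 were tested: 18 replication and 26 mitosis genes rose and Cenpf fell, against 15.5% higher and 14.8% lower over 18807 genes. The groups did not overlap, T3 above PTU, for 20 replication and 26 mitosis genes, against 19.4% of all genes.

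The replication genes that rose include all 3 that passed the filter only through the T3 libraries. The adjusted p-values of those 3 genes, here and below, are a description. Among the replication genes the helicase gave 4 of 6 rises. Mcm5 (chr8:75109569-75128439, GRCm38) was at 1.32, 0.893 and 0.632 FPKM in the WT PTU libraries and at 3.98, 5.29 and 4.55 FPKM after T3. Its log2 fold change was 1.53 ± 0.15 (SE; adjusted p = 1.2e-06, limma). Mcm2 was at 1.78, 1.85 and 1.80 FPKM on PTU and 3.87, 4.70 and 4.54 FPKM after T3, a log2 fold change of 0.93 ± 0.12 (adjusted p = 1.3e-05). Each T3 heart was above each PTU heart for both genes. Mcm3 and Mcm6 also rose, by 0.82 and 0.84 on the log2 scale. Mcm4 and Mcm7 differed by 0.14 and 0.24 and did not pass, so the 6 subunits of the ring did not move by the same amount.

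Of the licensing and GINS genes, Cdt1 (which loads the helicase) and Gins2 (a part of the active helicase) rose, by 0.56 and 0.79 on the log2 scale, while Gins1 differed by -0.13. Cdc6, the other loader, was too low for the filter: it was at 0.280, 0.142 and 0.0249 FPKM on PTU and at 0.393, 0.550 and 0.529 FPKM after T3. Its groups did not overlap, and without the filter the log2 fold change was 0.38 ± 0.07 (adjusted p = 0.00099). The polymerase alpha subunit Pola1 rose by 0.38 and the primase Prim1 by 0.65. Pcna was at 39.9, 34.2 and 40.2 FPKM on PTU and 46.4, 46.0 and 48.1 FPKM after T3. That difference did not pass in WT (0.29 ± 0.12, adjusted p = 0.058), although the groups did not overlap. Pole, the polymerase epsilon subunit, differed by 0.08 without the filter and did not pass.

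Enzymes of nucleotide supply gave 4 rises of 5. Rrm2 (chr12:24708241-24714146), the regulated subunit of ribonucleotide reductase, was at 0.569, 0.795 and 0.217 FPKM on PTU and at 3.35, 4.38 and 3.46 FPKM after T3. Its log2 fold change was 1.64 ± 0.22 (adjusted p = 2.3e-05), and its partner Rrm1 rose by 0.35. Tyms, thymidylate synthase, was at 0.673, 0.903 and 0.450 FPKM on PTU and 1.65, 2.11 and 1.30 FPKM after T3 (0.68 ± 0.13, adjusted p = 0.00069). Tk1, thymidine kinase, was at 2.60, 1.71 and 2.45 FPKM on PTU and 3.23, 7.44 and 3.99 FPKM after T3, with replicate 2 well above the other T3 hearts (0.80 ± 0.21, adjusted p = 0.0057). Dut differed by -0.04 and did not pass.

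The genes of the G1-S switch and of chromatin copying gave 4 rises of 5, the fifth, E2f2, being too low for the filter. Where a gene here passed the filter only through the T3 libraries, its adjusted p-value is a description. Uhrf1 (chr17:56303321-56323486), which carries DNA methylation through replication, was at 0.386, 0.192 and 0.135 FPKM on PTU and at 2.75, 3.44 and 3.53 FPKM after T3. The ratio of means was 13.7 and the log2 fold change 1.78 ± 0.16 (adjusted p = 3.9e-07), the highest ratio among the replication genes. E2f1, an activator of S-phase genes, went from 0.388, 0.351 and 0.129 FPKM to 1.20, 1.94 and 2.15 FPKM (1.09 ± 0.18, adjusted p = 0.0002). The cyclins E rose by less: Ccne1 was at 0.458, 0.398 and 0.489 FPKM on PTU and 0.839, 1.76 and 1.55 FPKM after T3 (0.70 ± 0.15, adjusted p = 0.0012). Ccne2 was at 0.514, 0.466 and 0.267 FPKM and then 0.968, 1.20 and 0.838 FPKM (0.50 ± 0.14, adjusted p = 0.010). No T3 heart lay within the PTU range for any of these genes.

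**Figure D2:**
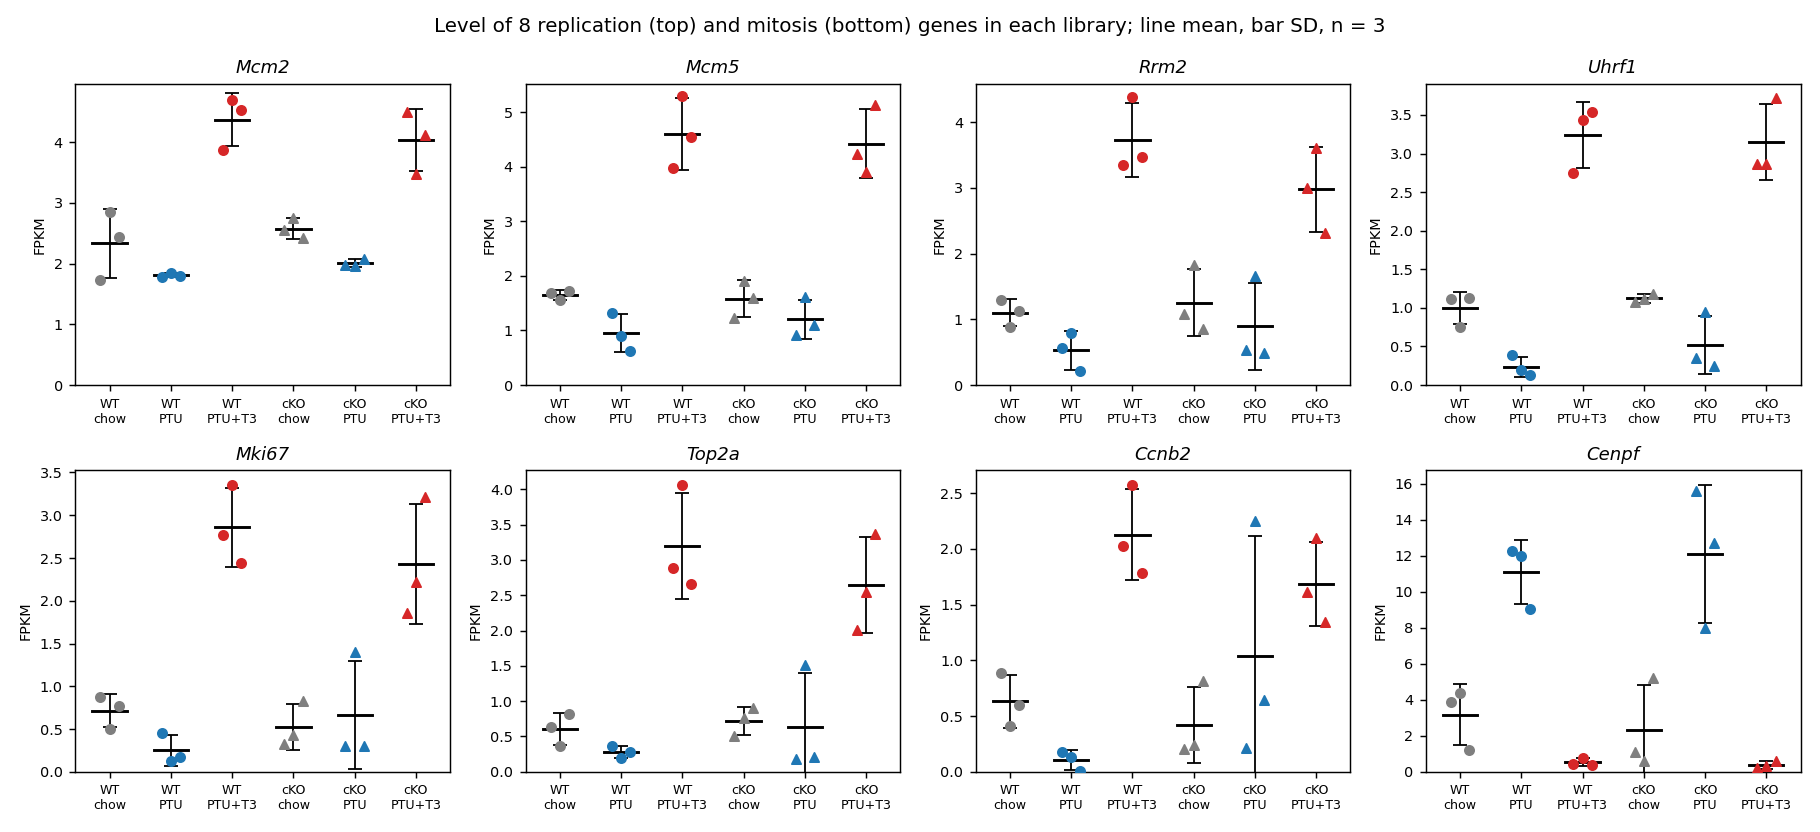
Level in FPKM (linear axis from 0, each panel with its own scale) of 4 replication genes and 4 mitosis genes in every library by group, with the group mean (line) and SD (bar, cut off at 0 where it would reach below), n = 3. The T3 hearts lie above the chow and PTU hearts of their own genotype in all panels but Cenpf, where they have the lowest means, and Ccnb2, where 1 cKO PTU heart, replicate 2, at 2.25 FPKM lies above all cKO T3 hearts.

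Among the mitosis genes the proliferation marker Mki67 (chr7:135689784-135716361) was at 0.459, 0.125 and 0.175 FPKM in the WT PTU hearts and at 2.77, 3.36 and 2.45 FPKM after T3. Its log2 fold change was 1.62 ± 0.22 (adjusted p = 2.8e-05). Top2a (chr11:98992943-99024189), the topoisomerase that untangles sister chromatids, was at 0.371, 0.193 and 0.280 FPKM and then 2.88, 4.06 and 2.65 FPKM (1.70 ± 0.24, adjusted p = 3.7e-05). Neither gene's groups overlapped. Of the 23 mitosis genes tested, 18 passed the filter only through the T3 libraries. Their adjusted p-values, here and below, are therefore a description.

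The mitotic engine rose as well. Cdk1, the kinase that drives entry into mitosis, was at 0.333, 0.428 and 0.445 FPKM on PTU and 2.06, 2.61 and 2.01 FPKM after T3 (1.20 ± 0.20, adjusted p = 0.0002). Its partner Ccna2 was at 0.803, 0.906 and 0.536 FPKM and then 2.66, 4.20 and 2.63 FPKM (1.24 ± 0.22, adjusted p = 0.00028). The other partner, Ccnb1, did not reach the filter, with 0.190, 0.0827 and 0.0508 FPKM on PTU and 0.628, 1.38 and 0.669 FPKM after T3 (0.75 ± 0.20 without the filter, adjusted p = 0.011). Every T3 heart exceeded every PTU heart for these genes. Foxm1, a transcription factor for mitosis genes, was at 0.369, 0.253 and 0.130 FPKM and then 1.01, 1.45 and 0.838 FPKM (0.74 ± 0.15, adjusted p = 0.00094).

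All 5 kinases and passenger complex genes rose in WT. Aurkb, the kinase of the passenger complex, was at 0.229, 0.199 and the floor of 0.01 FPKM on PTU and at 1.51, 1.5 and 1.61 FPKM after T3 (1.15 ± 0.19, adjusted p = 0.00016). Birc5 (survivin), another passenger protein, was at 0.647, 0.336 and 0.101 FPKM and then 3.75, 5.12 and 2.70 FPKM (1.83 ± 0.34, adjusted p = 0.00046). Plk1, the Polo-like kinase, was at 0.482, 0.306 and the floor of 0.01 FPKM and then 0.994, 1.32 and 0.815 FPKM (0.70 ± 0.17, adjusted p = 0.0034). The T3 values of all 3 genes lay clear of the PTU values. Aurka and Cdca8 rose by 0.54 and 1.22.

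Later steps of division followed the same direction. The checkpoint kinase Bub1b was at 0.349, 0.278 and 0.0622 FPKM on PTU and 1.37, 1.21 and 1.16 FPKM after T3 (0.88 ± 0.17, adjusted p = 0.00056). The spindle motor Kif11 was at 0.367, 0.304 and 0.210 FPKM and then 0.962, 2.08 and 1.02 FPKM (0.83 ± 0.18, adjusted p = 0.0013). Ube2c, which feeds the anaphase ubiquitin ligase, was at 0.978, 0.708 and 1.16 FPKM and then 4.98, 6.02 and 2.81 FPKM (1.48 ± 0.26, adjusted p = 0.00028). Replicate 2 was the highest T3 heart for each of the last 2, yet all T3 hearts were above all PTU hearts. The scaffold of the cytokinetic ring, Anln, was at 0.341, 0.455 and 0.269 FPKM and then 0.724, 1.67 and 1.02 FPKM (0.64 ± 0.19, adjusted p = 0.012). All 4 spindle genes (Kif11, Tpx2, Nusap1, Prc1) rose, as did 4 of the 5 cytokinesis genes (Kif20a, Kif23, Racgap1, Anln). The fifth, Ect2, together with Bub1 and Cenpe, missed the filter and differed by 0.63, 0.61 and 0.40 without it (adjusted p = 0.0013, 0.00053 and 0.0058).

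WT PTU+T3 replicate 2 was the highest of its group for 22 of the 27 mitosis genes and 16 of the 24 replication genes. Its summed macrophage markers were 866 FPKM against 617 and 535 in the other hearts of the group, its fibroblast markers 1534 FPKM against 729 and 782, and its lymphocyte markers 19.0 FPKM against 8.16 and 5.83. Without this heart, 19 mitosis genes (Cenpf among them) and 16 replication genes were called for T3 after PTU in WT. These counts include genes that passed the filter only through the T3 libraries, and no share over all genes was computed for that fit. Whether these cell types had a part in it was not tested.

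**Figure D3:**
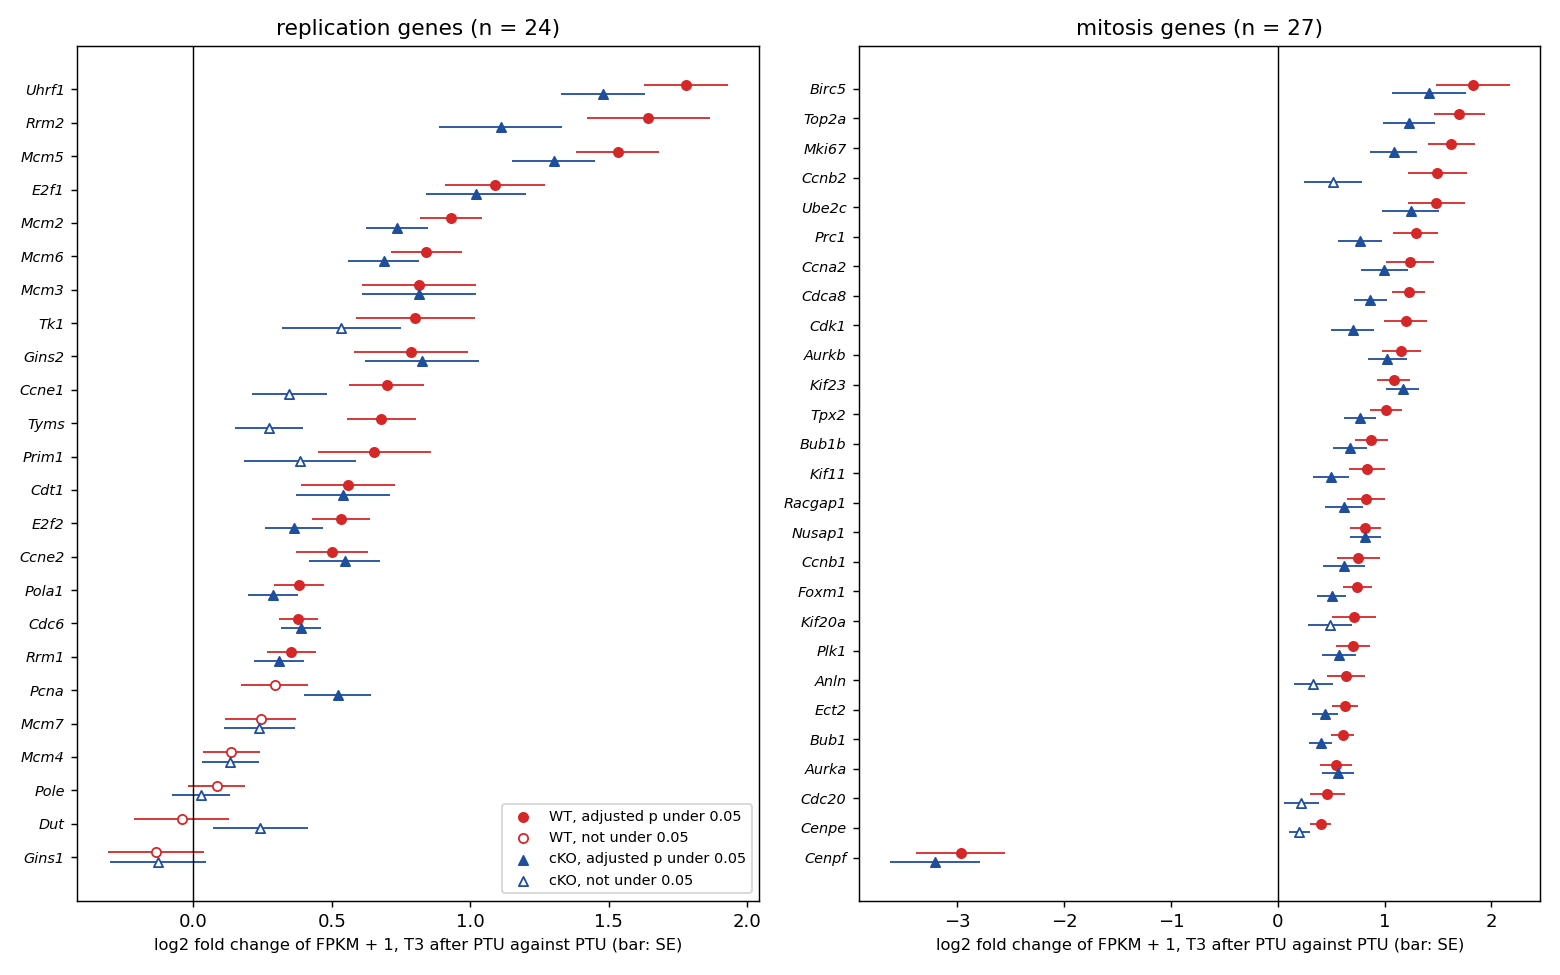
Log2 fold change of FPKM + 1 with its SE for T3 after PTU against PTU, for all 51 genes fitted without the filter on low values, WT as circles and cKO as triangles, filled where the adjusted p is under 0.05. Nearly all points lie to the right of 0, Cenpf lies near -3 in both genotypes, and Gins1, Pole and Dut lie near 0.

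Cenpf (chr1:189640606-189688086), a large protein of the kinetochore and the nuclear matrix, went the opposite way to the other mitosis genes. It was at 3.88, 4.39 and 1.24 FPKM in WT hearts on chow, at 12.3, 12.0 and 9.06 FPKM on PTU, and at 0.455, 0.782 and 0.400 FPKM after T3. In cKO hearts it was at 1.10, 0.608 and 5.20 FPKM on chow, 15.6, 8.00 and 12.7 FPKM on PTU, and 0.207, 0.330 and 0.620 FPKM after T3. The PTU hearts were highest and, except for 1 cKO heart on chow at 0.608 FPKM against 0.620 FPKM, the T3 hearts were lowest in each genotype. On PTU it rose by 1.63 ± 0.42 on the log2 scale in WT (adjusted p = 0.015, limma) and by 2.20 ± 0.42 in cKO (adjusted p = 0.0032). With T3 it fell by 2.97 in WT (adjusted p = 5.3e-05) and by 3.21 in cKO (adjusted p = 2.2e-05). The rise in WT missed the threshold without WT chow replicate 3 or without WT PTU replicate 1 (adjusted p up to 0.071), whereas the T3 fall held in all 18 alternatives tried in each genotype. The authors' deposited table likewise listed it higher on PTU and lower after T3 in WT, with q-values of 0.00077 and 0.00034. No gene of the table shares exons with it on the other strand.

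On PTU alone the members changed little by the formal test. In WT, 2 replication genes fell, Uhrf1 and Mcm5, and Cenpf rose, that is 3 of the 44 tested. Over all genes 8.02% rose and 8.76% fell, 16.8% together. Uhrf1 was at 1.12, 0.755 and 1.13 FPKM on chow and 0.386, 0.192 and 0.135 FPKM on PTU, and it fell by 0.69 on the log2 scale (adjusted p = 0.0070). Mcm5, at 1.69, 1.55 and 1.73 FPKM on chow against 1.32, 0.893 and 0.632 FPKM on PTU, fell by 0.46 at an adjusted p of 0.047, and that call was lost in 11 of 18 alternatives. In both genes every PTU heart was below every chow heart. The mitosis genes were lower without passing singly: 15 of the 27 had no overlap between groups, PTU below chow, against 13.0% of all genes, and their median ratio of PTU to chow was 0.535. Mki67 was at 0.876, 0.501 and 0.766 FPKM on chow against 0.459, 0.125 and 0.175 FPKM on PTU (-0.46 ± 0.22, adjusted p = 0.17). Prc1, which bundles spindle microtubules, was at 1.25, 0.947 and 0.900 FPKM on chow against 0.323, 0.475 and 0.268 FPKM on PTU (-0.58 ± 0.21, adjusted p = 0.064). The authors' deposited table tested 22 of the 51 in this comparison. At a q-value under 0.05 it called 3 lower (Mcm5, Uhrf1 and Prc1) and 1, Cenpf, higher. The q-value of Prc1 was 0.0046. Of all genes that the authors tested here, 16.8% were called in either direction, so these member calls do not stand out from that share.

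In cKO hearts 1 replication gene fell on PTU, Uhrf1, by 0.52 (adjusted p = 0.035), and Cenpf rose. Over all genes 6.44% rose and 9.59% fell, 16.0% together. Uhrf1 was at 1.08, 1.11 and 1.18 FPKM on chow and 0.356, 0.943 and 0.243 FPKM on PTU, and its call was lost in 6 of 18 alternatives. None of the 27 mitosis genes lay below chow without overlap, against 12.4% of all genes, and the median ratio of PTU to chow was 1.10. Without cKO PTU replicate 2, 11 mitosis genes lay below chow with no overlap, against 17.4% of all genes, and the median ratio was 0.529, beside 0.535 in WT. The median log2 difference of the tested mitosis genes was 0.01 with all hearts and -0.23 without cKO PTU replicate 2, beside -0.27 in WT. No member passed the test of whether the PTU response differed between genotypes, with or without that heart.

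Against chow, many members were also higher in the T3-treated hearts. In WT 13 replication genes and 17 mitosis genes rose and Cenpf fell, against 7.68% higher and 7.0% lower of all genes. In cKO 11 and 17 rose and none fell, against 11.7% higher and 9.15% lower. Here too most tested mitosis genes passed the filter only through the T3 libraries. Of the 18 replication genes that pass without them, 12 rose in WT and 9 in cKO. Of the 5 such mitosis genes, 3 rose and 1 fell in WT and 3 rose in cKO. The median ratio of T3 to chow in WT was 1.79 for replication and 2.86 for mitosis genes, and in cKO 1.71 and 3.03. Mki67 was 4.00 times, Top2a 5.28 times and Birc5 5.30 times its WT chow mean. The order of group means was T3, chow, PTU from high to low for 26 of the 27 mitosis genes and 15 of the 24 replication genes in WT, and for 9 and 13 in cKO. Without cKO PTU replicate 2 the cKO counts were 23 and 17. How many of all genes had this order was not counted. The Cenpf fall against chow in WT (-1.34 ± 0.42, adjusted p = 0.044) was lost in 7 of 18 alternatives. Without WT PTU+T3 replicate 2, 10 mitosis genes were called in WT in place of 18, and without WT chow replicate 1, 11. Without WT chow replicate 2, 8 replication genes were called in place of 13. No share over all genes was computed for these fits. All 3 comparisons within a genotype share libraries, the PTU hearts entering 2 of them, so they are not independent of one another.

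In cKO hearts T3 after PTU raised 14 replication and 18 mitosis genes and lowered Cenpf, against 24.9% of all genes higher and 21.8% lower, 46.7% together. The groups did not overlap, T3 above PTU, for 19 replication and 20 mitosis genes, against 20.7% of all genes. Of the 18 replication genes that pass the filter without T3 libraries, 12 rose, and of the 5 such mitosis genes 3 rose and Cenpf fell. The other mitosis calls are on genes that passed only through T3 libraries. Mcm5 was at 0.910, 1.61 and 1.11 FPKM on PTU and 4.23, 3.91 and 5.12 FPKM after T3 (1.30 ± 0.15, adjusted p = 4.9e-06). Uhrf1 was at 0.356, 0.943 and 0.243 FPKM and then 2.87, 2.87 and 3.72 FPKM (1.48 ± 0.16, adjusted p = 2.0e-06). Both separated fully from PTU. Mki67 was at 0.305, 1.40 and 0.296 FPKM and then 1.86, 2.22 and 3.21 FPKM (1.09 ± 0.22, adjusted p = 0.00083). Top2a was at 0.185, 1.52 and 0.213 FPKM and then 2.01, 2.55 and 3.36 FPKM (1.23 ± 0.24, adjusted p = 0.00057). Here cKO PTU replicate 2 was the high PTU heart, though still below each T3 heart. For Ccnb2 it was not: the PTU hearts were at 0.212, 2.25 and 0.647 FPKM and the T3 hearts at 1.62, 2.10 and 1.35 FPKM, and the difference did not pass (0.52 ± 0.27, adjusted p = 0.13). Pcna, in contrast, passed in cKO (0.52 ± 0.12, adjusted p = 0.0022), with 31.9, 32.4 and 39.3 FPKM on PTU and 40.1, 54.3 and 56.7 FPKM after T3. Whether Pcna's response differed between genotypes did not pass its own test (0.23 ± 0.17, adjusted p = 0.71). In the fit without cKO PTU replicate 2, T3 after PTU raised 13 replication and 20 mitosis genes in cKO and lowered 1 mitosis gene. No share over all genes was computed for that fit.

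Between genotypes no member was called on chow, on PTU, on PTU with T3, averaged over treatments, or in the interactions with PTU and T3, where 0% of all genes were called as well. At an unadjusted p under 0.05 there were 0, 2, 0, 1, 1 and 2 members of 44 in those 6 tests, in that order. The authors' deposited tables also gave no member a q-value under 0.05 between genotypes, on any of the 3 treatments. They tested 23 members on chow, 24 on PTU and 44 on PTU with T3. Of all genes they called 0.664%, 0.950% and 0.991%, so few or no calls among so few members would be usual. On PTU, 4 members (Mcm2, Tyms, Ccne1 and Ccnb2) were higher in every cKO heart than in every WT heart, against 3.32% of all genes; with T3, Cdk1 was lower in every cKO heart, against 3.57%. The smallest interaction p for T3 was that of Ccnb2, -0.98 ± 0.38 (adjusted p = 0.70). The T3 response of the tested mitosis genes had a median of 1.01 in WT and 0.70 in cKO on the log2 scale, and the median difference of the responses was -0.24. Without cKO PTU replicate 2 the cKO median was 0.97 and the median difference -0.05. After T3 the class median level was 1.19, 1.66 and 1.21 FPKM in WT and 1.16, 1.45 and 1.42 FPKM in cKO, with overlapping ranges. On PTU it was 0.367, 0.304 and 0.167 FPKM in WT and 0.284, 0.862 and 0.257 FPKM in cKO, where 1 heart alone lay above the WT range.

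In WT hearts macrophage markers moved in the same directions as most mitosis genes on PTU and with T3 after PTU. The sum of 13 such markers was 526, 363 and 649 FPKM in WT hearts on chow, 316, 209 and 218 FPKM on PTU, and 617, 866 and 535 FPKM after T3. Of these markers 6 fell on PTU and 10 rose with T3 in WT, against 8.76% and 22.3% of all genes. In cKO none fell on PTU, where the sum was 211, 661 and 261 FPKM, and 7 rose with T3 to sums of 635, 589 and 544 FPKM. Over all genes in cKO, 9.59% fell on PTU and 24.9% rose with T3. These shares apply to the lists below too. For PTU with T3 against chow, 1 of the 13 macrophage markers was higher in WT and 1 in cKO, against 7.68% and 11.7% of all genes. Of 9 smooth muscle and pericyte markers 1 rose with T3 in WT, the smooth muscle actin gene Acta2, whose mean was 56.7 ± 25.6 FPKM on PTU and 437 ± 111 FPKM after T3 (SD, n = 3). The smooth muscle myosin gene Myh11 and the pericyte channel gene Abcc9 fell, and the median log2 difference of the list was -0.13. Of 8 erythroid markers tested, 2 fell on PTU in WT and 5 in cKO, with median log2 differences of -0.64 and -1.74. With T3 after PTU, 1 erythroid marker rose in WT, while 3 rose and 1 fell in cKO. In WT the mean of the transferrin receptor gene Tfrc went from 8.24 ± 1.08 to 70.4 ± 29.1 FPKM (SD, n = 3). The hemoglobin gene Hba-a1 went from 851 ± 343 to 932 ± 213 FPKM and Alas2 from 17.3 ± 7.12 to 18.7 ± 4.79 FPKM, within their spread. The sum of 12 endothelial markers stayed between 400 and 530 FPKM in all 18 libraries, with 1 marker higher after T3 in WT. Of 10 fibroblast markers 1 rose in WT, and the sums of that list ranged from 564 to 1570 FPKM over the 18 libraries. The part of these cell types in the results was not tested. Without the heart of each group with the highest macrophage sum, the T3 counts against PTU kept within 1.5 times those given, in both classes and genotypes. Under the same alternative the counts for PTU with T3 against chow went from 13 to 7 replication genes and from 18 to 11 mitosis genes in WT, and from 11 to 7 replication genes in cKO. The mitosis count in cKO went from 17 to 19. No share over all genes was computed under this alternative.

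**Figure D4:**
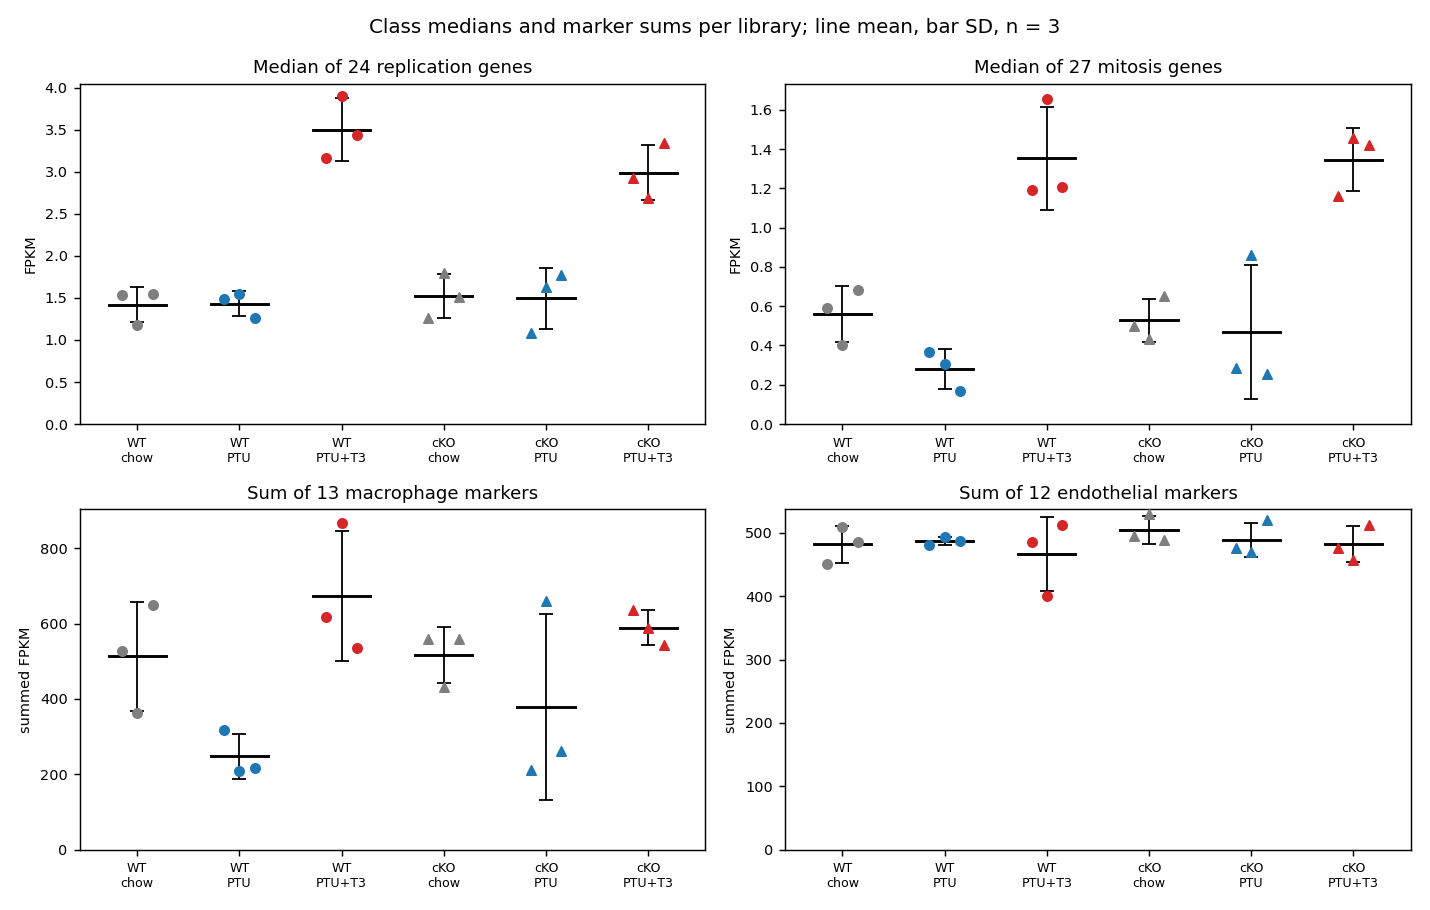
Median FPKM over the 24 replication and the 27 mitosis genes (top) and summed FPKM of 13 macrophage and 12 endothelial markers (bottom) in every library, with the group mean (line) and SD (bar), n = 3. The mitosis medians and the macrophage sums are both low in WT PTU hearts and in 2 of the 3 cKO PTU hearts, while endothelial sums lie between 400 and 530 FPKM throughout.

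Other genes of the same pathways showed a mixed picture in the T3 comparison in WT. Of 49 further replication genes 42 were tested: 16 rose and 5 fell. The histone chaperone gene Asf1b rose by 1.02 ± 0.17 (adjusted p = 0.00018) and the polymerase epsilon subunit Pole2 by 0.75 ± 0.21 (adjusted p = 0.0084). The clamp loader genes Rfc3 and Rfc1 fell, by 0.58 and 0.56 (adjusted p = 0.0027 and 0.0003). Of 64 further mitosis genes 31 were tested: 15 rose and 5 fell. The filter took in the T3 libraries for these further lists too. How many of their genes passed only through those libraries was not counted, so these counts are a description. Cks2, a small partner of the cyclin-dependent kinases, rose by 1.57 ± 0.24 (adjusted p = 0.0001) and the centromeric histone gene Cenpa by 1.52 ± 0.17 (adjusted p = 3.8e-06), while the spindle genes Numa1 and Ckap5 fell by 0.82 and 0.67 (adjusted p = 9.5e-07 and 8.3e-05). Cenpa was at a far higher level than most of the 27 mitosis genes: its mean was 19.2 ± 2.93 FPKM on chow, 5.87 ± 1.06 FPKM on PTU and 18.9 ± 5.22 FPKM after T3 in WT (SD, n = 3).

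Of 17 genes of the E2F, pocket protein and MuvB families, which switch cell-cycle genes on and off, 14 were tested. In WT 4 rose with T3 and 4 fell. The repressor gene E2f6 and the E2F partner gene Tfdp1 rose by 0.76 ± 0.11 and 0.45 ± 0.10 (adjusted p = 3.8e-05 and 0.0015). The other partner gene, Tfdp2, and the pocket protein gene Rbl2 fell by 0.52 and 0.49 (adjusted p = 0.0076 and 0.0022). In cKO 10 of the 42 tested replication genes rose and 5 fell, 13 of the 31 mitosis genes rose and 3 fell, and 4 of the 14 regulators rose and 5 fell. These lists were chosen with results of the same libraries known, and their counts stand beside 22.3% higher and 21.8% lower of all genes in WT and 24.9% and 21.8% in cKO.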

How the data were processed

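Gene expression was measured by RNA-seq of polyA RNA in 18 mouse hearts, in 6 groups of 3 taken from the genotype and treatment labels. Libraries were made with a TruSeq RNA kit, per the labels' protocols, of a version that does not mark strand. Bowtie2, Cufflinks and build mm10 are listed without version or role, per the submitters' processing notes. The authors deposited FPKM per gene and library, with a floor of 0.01, and for the comparisons of WT groups and of genotypes tables with group FPKM, p-values and q-values. FPKM gives no read totals, so the depth is known only in relative terms and no counting interval can be given.

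Here limma 3.58.1 in R 4.3.3 was fitted to log2(FPKM + 1) with 6 group means and a trended, robust prior, on 12 residual degrees of freedom. Tested were the 12587 genes that reached 1 FPKM in 3 or more libraries, with Benjamini-Hochberg adjustment over them within each comparison and a threshold of 0.05. Fold changes on this scale understate those of low genes; ratios of group means are of FPKM itself. The fit was tested on simulated data. Duplicate libraries were looked for by correlation within each group, and none there was identical. Gene positions are those of the GRCm38 annotation (GENCODE). The members and lists were chosen with earlier results of these data known. Any member may be named. Values in every library are given for a fixed panel of 24 and for members called against their class (Cenpf), with further values where a result turns on them (such as Ccnb2 and Prc1, chosen after their values were seen). Of other pathway genes the 2 highest and 2 lowest called per list are named. Alternatives covered the pseudocount, the filter, rescaling, quantile normalization, sample weights, the prior, the compared groups alone, each library left out, and the authors' q-values. Leaving out the heart of each group highest in atrial or macrophage markers was added after seeing the data, as were the order and overlap of cKO groups without cKO PTU replicate 2.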

Additional observations from a re-analysis of the deposited data

How the results depend on the processing

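No call or count reversed its direction under the alternatives run. For T3 after PTU in WT, the replication count of 16 moved by less than 1.5 times under all of them. The counts that moved by more are given here, in either direction together. For PTU against chow in WT the replication count of 2 became 1 with no filter, with a mean of at least 0.1 FPKM, with the compared groups alone, and without the hearts highest in atrial or in macrophage markers, and ranged from 1 to 2 with single hearts left out. The mitosis count of 1 there became 3 with a pseudocount of 0.1, 2 with a pseudocount of 0.25, with sample weights, with the compared groups alone and by the authors' q-value, and ranged from 0 to 1. For PTU against chow in cKO the replication count of 1 became 2 with either pseudocount and with sample weights and 0 with the compared groups alone, with a range of 0 to 1; the mitosis count of 1 became 0 with those groups alone. A filter on a mean of at least 1 FPKM left 16 of the 27 mitosis genes untested. Under it 11 of 23 mitosis calls remained for T3 against PTU in WT and 9 of 19 in cKO. Against chow 10 of 18 remained in WT and 9 of 17 in cKO. No call was lost on a gene that this filter still tested. For PTU with T3 against chow in WT the replication count of 13 became 8 with the compared groups alone and 7 without the hearts highest in macrophage markers (range 8 to 13), and the mitosis count of 18 became 11 without the latter (range 10 to 17). In cKO the replication count against chow of 11 became 6 without the hearts highest in atrial markers and 7 without those highest in macrophage markers, and that of 14 for T3 against PTU became 8 without the former. Those fits keep 12 libraries. Without the hearts highest in macrophage markers 1 member, Cenpf, was called between genotypes on chow (lower in cKO by 1.48 on the log2 scale, adjusted p = 0.020), where replicate 3 of both groups is left out; the cause was not tested. Over single genes and alternatives, 214 calls were lost and 2188 results kept direction and call. Leaving a group with 2 libraries used the spread pooled over groups. For the fits with libraries left out no share over all genes was computed.

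No paired analysis was possible because the replicate numbers follow accession order and the labels give none that groups share. Depth limits the genes below 1 FPKM most, where 1 library at the floor can set a group's mean.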
